A study of Mus musculus with 45 samples.

Results

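The genes that cut, trim, amidate and pack neuropeptides were followed in 45 brain samples of adult Shank3-mutant mice. They were 10 genes of the 18135 in the deposited expression table, and 10 of 10 were found: Pam, Pcsk1, Pcsk2, Cpe, Scg5, Pcsk1n, Chga, Chgb, Scg2 and Scg3. Pam was chosen by its measured values, which moved in opposite directions in the homozygous mutant cortex and striatum. The other genes were chosen because they belong to the same pathway. Pam is therefore described without a test in the cortex and the striatum of mutant against WT mice, in the differences between regions of WT mice, and in the differences between regions of the mutant effect.

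Prefrontal cortex (cortex hereafter), hippocampus and striatum came from male C57BL/6J mice aged 13 weeks, with 5 mice per region and genotype. The genotypes were wild-type (WT), heterozygous (Shank3-HT, or HT) and homozygous (Shank3-HM, or HM, which the labels call knock-out) for a Shank3 allele that lacks exons 14-16. Shank3 encodes a scaffold protein of excitatory synapses. The sources do not state which samples of different regions came from the same mouse. Shank3 itself was lower in all mutant groups, with no overlap with WT, and differed by -0.38 to -1.11 on the log2 scale over the 6 comparisons. Its difference passed the threshold in all of them but the HT cortex (adjusted p = 0.288, limma), and in HT striatum only narrowly (adjusted p = 0.0494, limma). The paper, which used DESeq2, found Shank3 among the downregulated genes of all 6 mutant groups.

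Neuropeptides are made as long precursors in the endoplasmic reticulum and packed into dense core granules at the Golgi. Prohormone convertases cut the precursor after pairs of basic residues, a carboxypeptidase trims those residues from the new end, and an amidating enzyme turns a C-terminal glycine into an amide, which many peptides need to bind their receptor. Granins, acidic proteins that aggregate with the cargo, fill the granules. Neurons and endocrine cells of many kinds express these genes.

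Pam encodes peptidylglycine alpha-amidating monooxygenase, which needs copper and ascorbate. Pcsk1 and Pcsk2 encode the convertases PC1/3 and PC2, and Cpe encodes carboxypeptidase E. Scg5 encodes 7B2, the chaperone of PC2, and Pcsk1n encodes proSAAS, an inhibitor of PC1/3. Chga, Chgb, Scg2 and Scg3 encode chromogranin A, chromogranin B, secretogranin II and secretogranin III.

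The start of each gene bears on the granins and convertases, because a cAMP response element (CRE) is a known feature of several of their promoters. RefSeq promoters of build GRCm38.p6 were matched for 9 of the 10 genes, with none for Cpe. In the 250 bases before the start, the full CRE, TGACGTCA, was found in 3 of 9 (Pcsk1, Chgb and Scg2), against 1.77% of 27025 genes. Its first letters, TGACG, on either strand, which also match the full site, were found in 7 of 9, against 19.8%. GGGCGG, a GC box, on either strand, was found in 6 of 9 (35.4% of genes), and TATAAA in 0 of 9 (14.3%). The stretches around the full sites, around the shortened site of Chga and around the GC box of Pam follow, each read 5′ to 3′ on the strand of its gene. Capitals mark the match, which in Pam is the GC box of the opposite strand.
Pcsk1: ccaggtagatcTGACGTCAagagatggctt
Chgb: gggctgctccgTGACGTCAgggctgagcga
Scg2: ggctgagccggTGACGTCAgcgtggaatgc
Chga: ggggcggtcctaTGACGtaatttcctgggt
Pam: ccaccctccgacCCGCCCgggactccaagc

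These stretches lie at chr13:75089768-75089797 (plus strand) for Pcsk1, chr2:132781559-132781588 (plus) for Chgb and chr1:79440076-79440105 (minus) for Scg2. The other stretches lie at chr12:102554885-102554914 (plus) for Chga and chr1:98095745-98095774 (minus) for Pam. The full sites began 78, 72 and 68 bases before the RefSeq start of Pcsk1, Chgb and Scg2. In the GENCODE annotation Chgb and Scg2 begin farther upstream, so that their sites lie within the annotated gene. A match is a run of letters and not a bound site.

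Levels are normalized counts, on which genes of different length cannot be compared, so levels between genes were compared per kilobase of the longest coding transcript. On that scale Cpe stood first in all 3 regions of WT mice, with 20189 ± 427 per kilobase in the cortex (SD, n = 5). Chgb came second in the cortex (3804 ± 148) and hippocampus, and Pcsk1n second in the striatum. Pcsk1 stood last in each region, with 331 ± 55.1 per kilobase in the cortex. Pcsk1n (3223 ± 314), Scg5 (3221 ± 251) and Scg3 (3208 ± 139) lay within their spread of each other in the cortex, as did Pam (1500.4 ± 78.5) and Scg2 (1468 ± 36.4).

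A cortical library and a striatal library stood apart. HM cortex replicate 2 had a summed level of 67831 normalized counts over 15 markers of striatal spiny projection neurons, against 14271 to 17158 in the other 14 cortical samples and 238293 to 316446 in WT striatum. Of these markers, 14 of 15 were highest of all cortical samples there, and 10 of 15 markers of cortical projection neurons were lowest. Of the 10 genes described here, 1 was highest (Scg2) and 6 were lowest in it. In WT striatum replicate 5, spiny neuron markers summed to 238293 (301096 to 316446 in the other 4 WT samples) and cortical projection neuron markers to 20445 (10578 to 11964). It held the lowest Pam and Pcsk2 and the highest Pcsk1, Cpe, Chga, Chgb and Scg2 of the WT striatal samples. Results of the 10 genes that rest on these libraries are given with and without them. Differences, sign counts and medians of the wider gene lists, and p values of markers, are given only with them. Every striatal sample had more spiny neuron markers than any sample of the other regions, and every hippocampal sample more hippocampal neuron markers. Choroid plexus markers ranged from 1466 to 127200 in hippocampal samples and reached 70813 in HT striatum replicate 5. That sample also held the lowest Pam (3750.0) and Pcsk2 (8808) of HT striatum, whose means are not given without it.

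**Figure D1:**
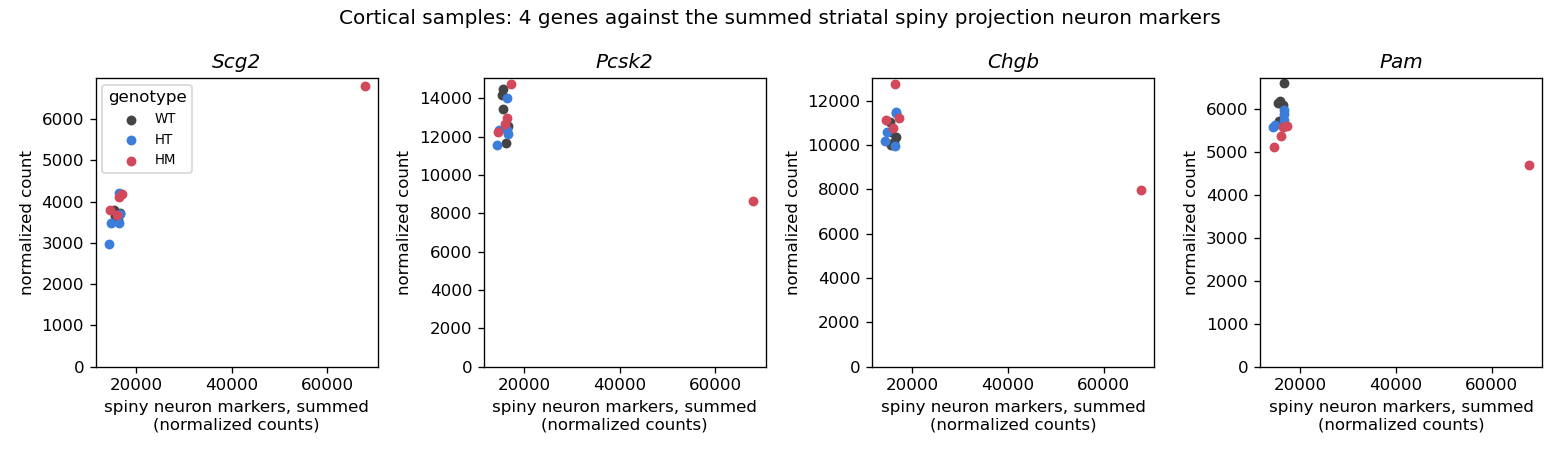
Normalized counts of Scg2, Pcsk2, Chgb and Pam (vertical axes) against the summed level of 15 spiny projection neuron markers (horizontal axes, in normalized counts), 1 point per cortical sample. HM replicate 2, the point at 67831 normalized counts, is highest for Scg2 (6799) and lowest for Pcsk2 (8627), Chgb (7967) and Pam (4703).

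To ask how the amidating enzyme depends on Shank3 dosage, Pam was read in every sample. In the cortex it measured 6153, 5717, 6190.3, 6091 and 6622 normalized counts in WT mice, 5982, 5639, 5584, 5895 and 5759 in HT mice, and 5599.6, 4703, 5108, 5591 and 5383 in HM mice. All 5 HM samples lay below all 5 WT samples, a separation in this direction that 0.412% of all genes showed and on which Pam was picked. The HT mean lay between, with 5 of 5 samples below the WT mean and 2 below every WT sample, and HT values overlapped those of both other groups. The means were 6155 ± 322 (WT), 5772 ± 168 (HT) and 5277 ± 378 (HM; SD, n = 5), so that HM cortex had 85.7% of the WT mean and HT cortex 93.8%.

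The lowest value, 4703, belonged to the library with spiny neuron markers. Without it, the HM mean was 5420.3 ± 231 (n = 4), or 88.1% of WT, and the 4 others still lay below every WT sample. On the log2 scale the HM difference was -0.22 with it and -0.18 without it. Glial and vessel markers also moved in HM cortex: 10 of 10 microglial, 8 of 10 astrocyte and 8 of 10 endothelial markers had a negative difference and 10 of 10 oligodendrocyte markers a positive one, with 2, 2, 3 and 1 of them at an unadjusted p under 0.05. Summed levels were 10236 to 11170.0 in HM and 10426 to 12820 in WT cortex for microglia, 139441 to 172958 and 155528 to 186037 for astrocytes, 10539.6 to 12163 and 11343 to 13176 for endothelial cells, and 68701 to 100397 and 67464 to 88008 for oligodendrocytes. In HT cortex 10 of 10 oligodendrocyte markers had a positive difference too, 2 of them at such a p, while 8 of 10 microglial, 8 of 10 endothelial and 11 of 15 cortical projection neuron markers had a negative one, none at such a p. Without HM cortex replicate 2 the counts for microglia, astrocytes and endothelial cells were as before, and 8 of 10 oligodendrocyte markers had a positive difference. None of these markers passed the threshold or was near 0, and their part in the Pam values was not tested.

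The striatum showed the opposite order for HM mice. Pam measured 4088, 3890.2, 4481, 4111 and 3812 in WT striatum, 3753, 4116, 3799, 3979 and 3750.0 in HT striatum, and 4322, 4343, 4271, 4485 and 4833 in HM striatum. The WT and HM groups overlapped, since WT replicate 3 exceeded 3 of the HM samples, but 5 of 5 HM samples lay above the WT mean. HT striatum stood on the other side, with 4 of 5 samples below the WT mean and 3 below every WT sample. The means were 4077 ± 259.5 (WT), 3879 ± 162 (HT) and 4450.5 ± 228 (HM), or 95.2% of WT in HT and 109.2% in HM mice. Without HM replicate 5, the highest value, the HM mean was 4355 ± 91.5 (n = 4), 106.8% of WT. Without WT replicate 5, the lowest WT value, HT striatum averaged 93.6% and HM striatum 107.4% of the other 4 WT samples.

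Other markers moved beside Pam in HM striatum. Interneuron markers summed to 43415 to 47439 in HM and 38846 to 40403 in WT striatum, with no overlap. All 12 of 12 had a positive difference, 3 of them with an unadjusted p under 0.05, and none of the 12 averaged under 10. Their list holds Gad1 and Gad2, and it summed to 23958 to 24888 in WT cortex and 35116 in HM cortex replicate 2. Whether the sum reflects interneurons alone in striatum was not tested. Oligodendrocyte markers had a positive difference in 10 of 10 genes, none at such a p, with a larger median than the interneuron markers (log2 0.21 against 0.14), and summed to 208464 to 316583 in HM and 188156 to 249295 in WT striatum. Endothelial markers had a negative difference in 8 of 10 genes, 1 at such a p, at 10687 to 12397 in HM and 10929.7 to 12457 in WT striatum. In HT striatum, 10 of 10 oligodendrocyte markers (9 at an unadjusted p under 0.05, median 0.35) and 10 of 10 astrocyte markers (4 at such a p) had a positive difference, and 13 of 15 cortical projection neuron markers a negative one (median -0.46). Their sums were 204743 to 347371, 134852 to 150521 and 8786 to 16928 in HT striatum, against 188156 to 249295, 121840.4 to 146644 and 10578 to 20445 in WT striatum. The summed cortical projection neuron markers rest on WT striatum replicate 5: HT striatum averaged 12052 against 13137 in WT striatum with it and 11309.5 without it, although 12 of 15 single markers then still had a negative difference (median -0.18). Spiny neuron markers had a negative difference in 13 of 15 genes in HT striatum (median -0.06) and in 15 of 15 without that library (median -0.14). In HM striatum they did in 9 of 15 genes with it and 13 of 15 without it (median -0.03 and -0.08). They summed to 254639.9 to 316556 in HT and 278379.9 to 312956 in HM striatum. In HM striatum the cortical projection neuron markers had a negative difference in 10 of 15 genes with that library and a positive one in 12 of 15 without it (median -0.07 and 0.36). With it, 3 of 15 had an unadjusted p under 0.05, and 1 passed the threshold, higher in HM striatum. No other marker named here passed it in HT or HM striatum. Without WT striatum replicate 5 the oligodendrocyte, astrocyte and endothelial sign counts given here were as before. In HM striatum 11 of 12 interneuron markers then had a positive difference. The part of these markers in the Pam values was not tested. In tissue samples such as these, fewer cells of a type and less RNA per cell cannot be told apart.

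In the hippocampus, which had no part in the choice of Pam, both mutant groups were higher than WT by a small margin that did not pass the test. Pam measured 3766, 3932, 3734, 3683 and 3843 in WT, 4040.0, 3988, 4227, 4026 and 3936 in HT, and 3977, 3849, 4043, 3913 and 3939 in HM hippocampus. Every HT sample exceeded every WT sample, although the lowest HT and the highest WT sample differed by few counts, and 5 of 5 HM samples lay above the WT mean. The difference was 0.09 ± 0.036 (SE) on the log2 scale in HT mice (adjusted p = 0.926, limma over 16571 genes). In HM mice it was 0.06 ± 0.036 (adjusted p = 0.920, limma). Both comparisons used the same WT mice. Marker sums that moved in mutant hippocampus are given beside Pcsk1, and their part in the Pam values was not tested either.

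**Figure D2:**
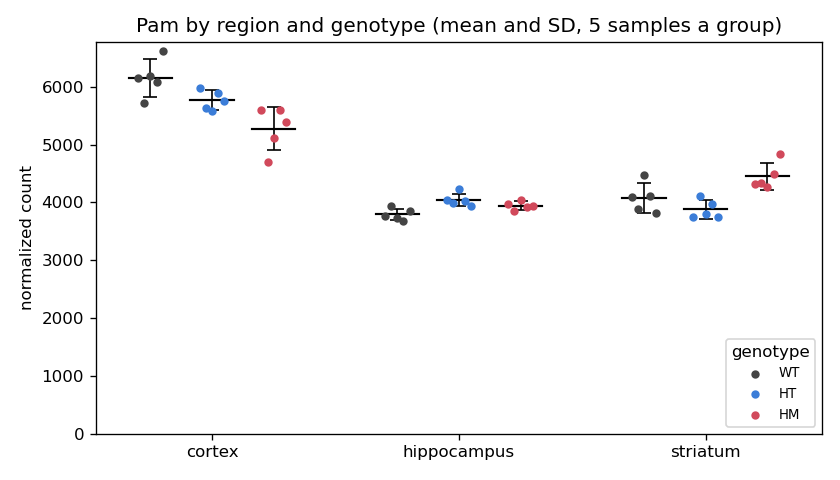
Normalized counts of Pam (vertical axis, from 0) in each sample by region and genotype, with the mean and SD of 5 samples. HM cortex lies wholly below WT cortex (85.7% of the WT mean), while HM striatum is shifted upward (109.2%) and overlaps WT.

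Across regions, Pam was highest in the cortex in both genotypes compared. The WT means of 6155, 4077 and 3792 ± 97.6 in cortex, striatum and hippocampus spanned 1.62-fold. No cortical sample of WT mice fell to a value of the other regions, and the striatal and hippocampal WT values overlapped. In HT mice, where the difference was tested, Pam was lower in striatum than in cortex by 0.57 ± 0.044 on the log2 scale (log2 difference -0.57, adjusted p = 8.16e-15, limma). It was also lower in hippocampus than in cortex (log2 difference -0.51, adjusted p = 4.97e-13). HT striatum and hippocampus differed by -0.06 ± 0.044 (adjusted p = 0.258).

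Pam spans chr1:97795114-98095646 on the minus strand (GRCm38, ENSMUSG00000026335), with 26 exons in its longest coding transcript. A gene model on the same strand within it, B230216N24Rik, was counted separately, at 60.7 to 407 normalized counts over the 45 samples and 3.66% of the Pam mean. How the quantification divided reads between them was not tested.

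The regional comparison asked where each step of peptide processing is most expressed. Of the 9 genes tested in WT mice, 7 differed between hippocampus and cortex, against 46.6% of all 16708 genes tested. Of these, 5 were lower in hippocampus (23.3% of all genes) and 2 higher (23.3%). Between striatum and cortex 6 of 9 differed, against 59.3%, with 5 lower in striatum (29.3% of all genes) and 1 higher (30%). Between striatum and hippocampus 7 of 9 differed, against 56.1%, with 4 higher in striatum (27.8%) and 3 lower (28.3%). In HT mice, with Pam included, 9 of 10 differed between hippocampus and cortex (45% of all genes; 7 or 8 with any 1 sample left out), 7 of 10 between striatum and cortex (58.6%) and 8 of 10 between striatum and hippocampus (53.6%). The median log2 difference of the 9 genes in WT mice was -0.26 for hippocampus minus cortex and -0.25 for striatum minus cortex, beside 0.01 over all genes in both. Without WT striatum replicate 5, 6 of 9 and 7 of 9 genes still differed between striatum and cortex and between striatum and hippocampus. All adjusted p values of regional differences are from 1 limma fit of the 9 groups.

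**Figure D3:**
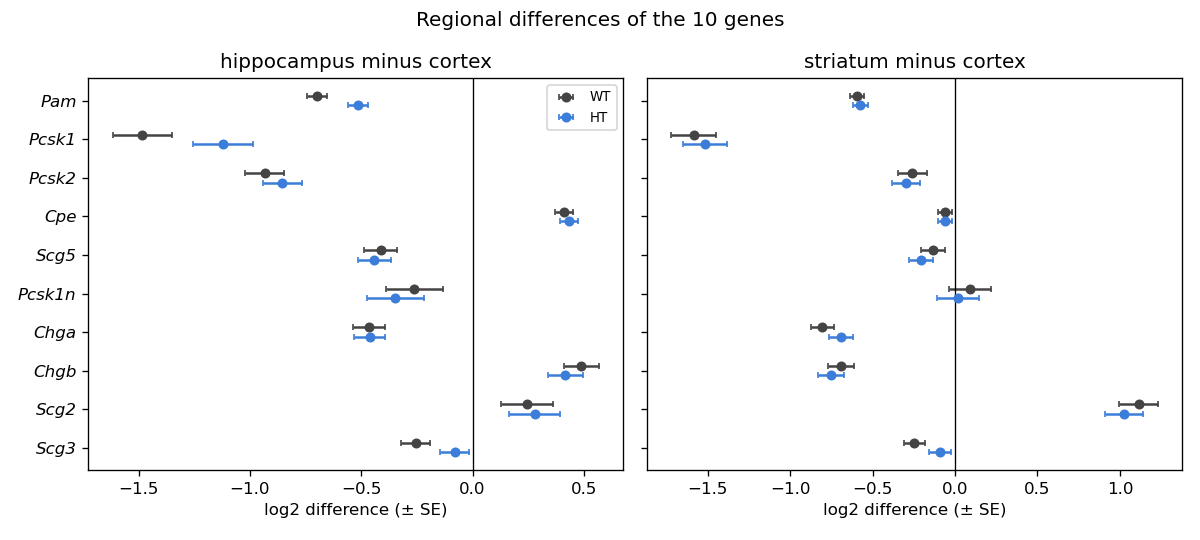
Log2 differences (horizontal axes) of hippocampus minus cortex and striatum minus cortex for the 10 genes, with the SE of the fit, in WT and HT mice. Pcsk1 lies farthest to the left in both panels, Cpe and Chgb lie to the right in hippocampus, and Scg2 lies near 1 in striatum.

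Pcsk1, the convertase that often makes the first cuts in a precursor, had the largest regional difference of the 10 genes. It lies at chr13:75089826-75134861 on the plus strand (ENSMUSG00000021587). It measured 1376, 1407, 1771, 1761 and 2037 normalized counts in WT cortex, 444, 611, 594, 676 and 661 in WT hippocampus, and 471, 458, 557, 589.7 and 708 in WT striatum. Every cortical sample exceeded every sample of the other regions, whose values overlapped. The log2 difference from cortex was -1.48 ± 0.13 in hippocampus (adjusted p = 1.70e-12) and -1.59 ± 0.13 in striatum (adjusted p = 1.15e-13). The CV of Pcsk1 among WT mice of a region ranged from 15.4% to 18.2%, where the median gene had 9.57% to 12.6%.

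Pcsk2, the second convertase, separated the regions in a different order. It lies at chr2:143546156-143816285 on the plus strand (ENSMUSG00000027419). Its WT values were 14178, 14492, 13469, 11661 and 12567 in cortex, 12204, 11120.0, 11112, 10559 and 10393 in striatum, and 7111, 7275, 7491, 6152 and 6683 in hippocampus. Cortex and striatum overlapped, and hippocampus lay below both. The striatum minus cortex difference was -0.26 ± 0.086 (adjusted p = 0.00911), and hippocampus lay 0.93 below cortex (log2 difference -0.93, adjusted p = 2.84e-12). Pcsk2 was higher in striatum than in hippocampus (log2 difference 0.68, adjusted p = 6.88e-09), while the Pcsk1 difference between these regions was -0.10 ± 0.13 in WT mice (adjusted p = 0.529) and -0.39 in HT mice (adjusted p = 0.0123, or 0.0624 without HT striatum replicate 2). An antisense gene of Pcsk2, Pcsk2os1, was at 0.954% of its level.

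Cpe, at chr8:64592542-64693054 on the minus strand (ENSMUSG00000037852), was the most even of the processing enzymes. It measured 42266, 42235, 43687, 41781 and 43727 in WT cortex, 40174, 40896, 40807, 40176 and 42724 in WT striatum, and 63189, 56063, 57747, 52536 and 55083 in WT hippocampus. The hippocampal samples lay above all others, by 0.41 ± 0.041 on the log2 scale against cortex (adjusted p = 1.91e-11). Striatum and cortex overlapped and differed by -0.06 ± 0.041 (adjusted p = 0.193). Under quantile normalization, which sets all samples to one distribution, this difference was -0.28 (adjusted p = 3.04e-05) in WT and -0.31 (adjusted p = 5.79e-06) in HT mice. The CV of Cpe in WT mice was 2.12% in cortex and 6.99% in hippocampus, the lowest and the highest of the 3 regions.

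Scg5, the chaperone of PC2, at chr2:113776362-113829121 on the minus strand (ENSMUSG00000023236), was lowest in hippocampus, as Pcsk2 was. Its WT values ranged from 3614 to 4322 in cortex, from 3319.8 to 4012 in striatum and from 2535 to 3589 in hippocampus. Hippocampus lay below cortex with no overlap (log2 difference -0.41 ± 0.074, adjusted p = 1.00e-05), and below striatum with overlap (striatum minus hippocampus 0.28, adjusted p = 0.00134). The striatum minus cortex difference of -0.13 did not pass the test in WT mice (adjusted p = 0.121) and that of -0.21 did in HT mice (adjusted p = 0.0155). Whether these differ was not tested, and the WT difference passed without striatum replicate 1 (-0.18, adjusted p = 0.0449).

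Pcsk1n, the inhibitor of PC1/3, lies at chrX:7919822-7924410 on the plus strand (ENSMUSG00000039278) and overlaps the annotated gene Eras, which was not analysed here. It was the gene with the least difference between cortex and striatum relative to its error. It ranged from 6570.0 to 8082 in WT cortex, from 6428 to 8549 in WT striatum and from 5041 to 6536 in WT hippocampus. The striatum exceeded the hippocampus by 0.35 ± 0.13 (adjusted p = 0.0170), and hippocampus minus cortex was -0.26 ± 0.13 (adjusted p = 0.0903). The first difference missed the threshold without WT hippocampus replicate 3 (adjusted p = 0.0578) and without WT striatum replicate 2 (adjusted p = 0.0534). In HT mice hippocampus minus cortex was -0.35 (adjusted p = 0.0239), a call lost without HT cortex replicate 1 or HT hippocampus replicate 1 or 2 (adjusted p = 0.0635 to 0.0692). Both calls were also lost under quantile normalization (adjusted p = 0.0730 and 0.0833).

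The granins did not share a regional order. Chga, at chr12:102554969-102565028 on the plus strand (ENSMUSG00000021194), was highest in cortex and lowest in striatum, with WT values of 3618, 4025, 3086, 3135 and 3312 in cortex, 2988, 2436, 2316, 2289 and 2410.4 in hippocampus, and 1810.2, 2011, 1709, 1886 and 2447 in striatum. The cortical samples lay above all others, while hippocampus and striatum overlapped. The log2 difference from cortex was -0.80 ± 0.071 in striatum (adjusted p = 4.33e-13) and -0.47 ± 0.071 in hippocampus (adjusted p = 5.61e-07).

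Chgb, at chr2:132781278-132795079 on the plus strand (ENSMUSG00000027350), was highest in hippocampus. It measured 16622, 14607, 16030.3, 12194 and 14075 there, 11043, 10567, 10012, 10136 and 10359 in cortex, and 6424, 6497, 6233, 6255 and 6866 in striatum of WT mice, so that the regions did not overlap. The hippocampal mean was 2.28 times the striatal mean (log2 difference of striatum minus hippocampus -1.18 ± 0.079, adjusted p = 6.87e-17). Against cortex, hippocampus was higher by 0.49 (adjusted p = 1.49e-06) and striatum lower (log2 difference -0.69, adjusted p = 4.16e-10).

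Scg2, at chr1:79434669-79440120 on the minus strand (ENSMUSG00000050711), went the other way and was highest in striatum. Its WT values were 7529.6, 7758, 7186, 7900.1 and 9776 in striatum, 4844, 4513, 4453, 3686 and 4458 in hippocampus, and 3796, 3729, 3649.8, 3556 and 3723 in cortex. Every striatal sample exceeded every other sample, and hippocampus and cortex overlapped through 1 hippocampal sample. The striatum minus cortex difference was 1.11 ± 0.12 (adjusted p = 3.99e-11), a ratio of means of 2.18. Hippocampus minus cortex was 0.24 ± 0.12 in WT mice (adjusted p = 0.0798) and 0.28 ± 0.12 in HT mice (adjusted p = 0.0469). The HT call was lost when any 1 of the 10 HT samples but cortex replicate 1 was left out (adjusted p = 0.0529 to 0.155), and the WT difference passed without hippocampus replicate 4 (adjusted p = 0.0357).

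Scg3, which binds chromogranin A in the granule membrane, lies at chr9:75643189-75684056 on the minus strand (ENSMUSG00000032181) and was nearly level across regions. Its WT values ranged from 7252 to 8094 in cortex, from 5307 to 6988 in hippocampus and from 5769 to 6907 in striatum. Both other regions lay below cortex with no overlap in WT mice (log2 differences -0.25 and -0.25, adjusted p = 0.00110 and 0.00114), although under quantile normalization hippocampus lay at -0.14 (adjusted p = 0.05002, not under the threshold). In HT mice the same differences, -0.08 and -0.09, did not pass the test (adjusted p = 0.323 and 0.231).

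**Figure D4:**
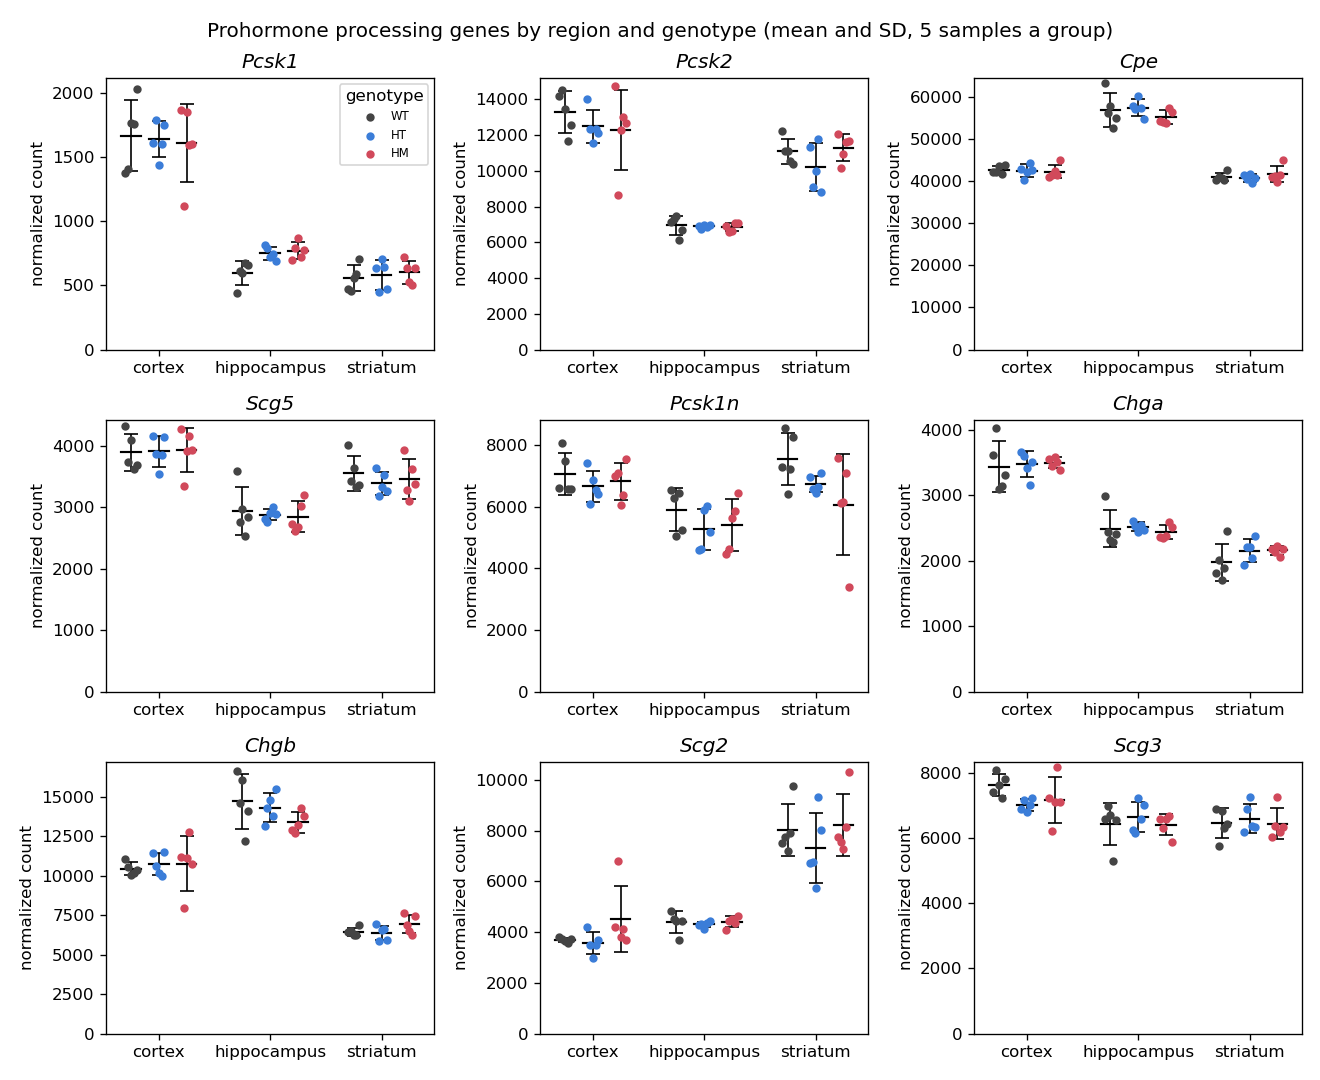
Normalized counts (vertical axes, from 0) of the 9 other genes in each sample by region and genotype, with the mean and SD of 5 samples. Regional differences such as those of Pcsk1, Chgb and Scg2 exceed the spread within a group, whereas the genotypes of a region mostly overlap.

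To test whether Shank3 dosage changed these genes within a region, mutant and WT mice were compared by limma over all genes of the region. No gene of the pathway passed an adjusted p of 0.05 in any of the 6 comparisons. In the cortex 0 of 9 passed in HT mice (0% of 16507 genes did) and 0 of 9 in HM mice (0.0121%). In the hippocampus 0 of 10 passed in HT mice (0.00603% of 16571 genes) and 0 of 10 in HM mice (0.00603%). In the striatum 0 of 9 passed in HT mice (0.00607% of 16482 genes) and 0 of 9 in HM mice (0.182%). HT and HM mice were compared with the same WT mice throughout.

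At an unadjusted p under 0.05 the counts were 0 of 9 in HT cortex and 0 of 9 in HM cortex, where 2.68% and 5.49% of all genes lay under it. They were 2 of 10 in HT hippocampus (5.26% of all genes) and 1 of 10 in HM hippocampus (4.73%), and 0 of 9 in HT striatum (7.43%) and 1 of 9 in HM striatum (7.43%). The median log2 difference of the genes tested lay between -0.02 and 0.03 in the 6 comparisons.

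**Figure D5:**
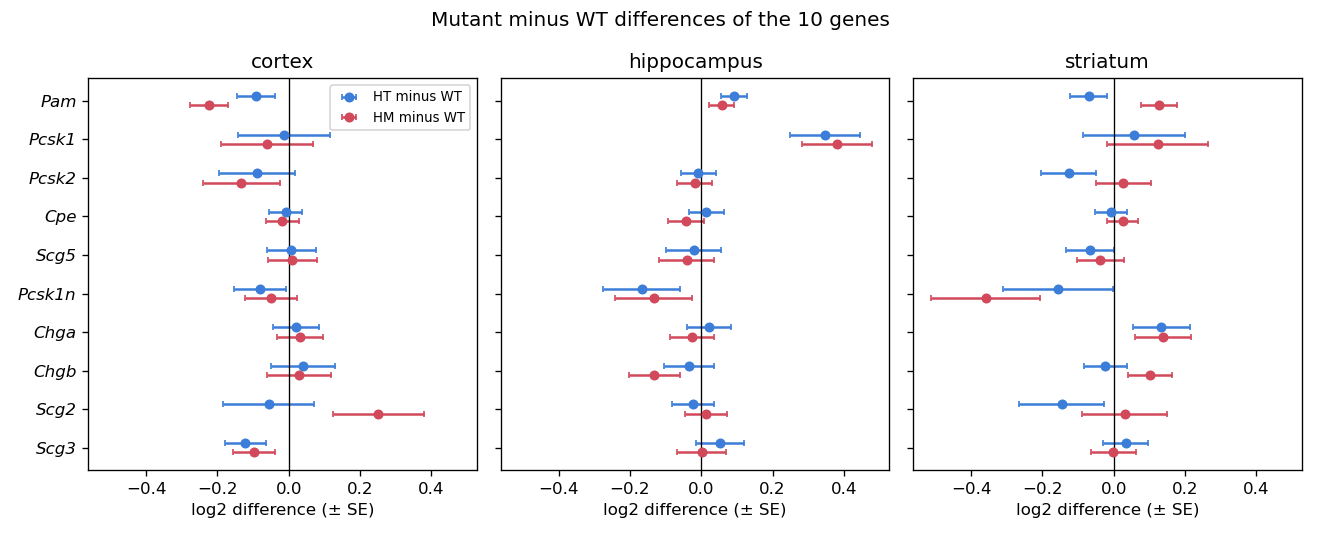
Log2 differences (horizontal axes) of HT minus WT and HM minus WT for the 10 genes in each region, with the SE of the fit. Pcsk1 in hippocampus lies at 0.35 and 0.38, Pcsk1n in HM striatum at -0.36, and Pam at -0.22 in HM cortex and 0.13 in HM striatum.

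Pcsk1 in the hippocampus was the one gene set apart from WT in both mutant groups of a region. It measured 444, 611, 594, 676 and 661 normalized counts in WT, 819, 789, 722, 742 and 694 in HT, and 698, 793, 872, 719.5 and 776 in HM hippocampus. Each of the 10 mutant samples exceeded each WT sample. Of all genes, 0.447% were separated upward in HT and 0.471% in HM hippocampus, where the counts among the 10 genes were 2 (Pcsk1 and Pam) and 1 (Pcsk1). The means were 597 ± 92.0, 753 ± 50.5 and 772 ± 68.4 (SD, n = 5), or 126.2% of WT in HT and 129.3% in HM mice.

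The log2 difference of Pcsk1 was 0.35 ± 0.098 in HT mice (adjusted p = 0.849, limma) and 0.38 ± 0.098 in HM mice (adjusted p = 0.740). It was thus not called in either comparison. Without WT hippocampus replicate 1, the lowest sample at 444, these differences were 0.24 in HT and 0.28 in HM mice. The other 4 WT samples averaged 635 ± 39.2. Choroid plexus markers summed to 3387 to 127200 in WT, 1466 to 34980 in HT and 6521 to 62772 in HM hippocampus. Of these, 10 of 10 had a negative difference in HT mice (median log2 -1.40, 1 at an unadjusted p under 0.05) and 9 of 10 a positive one in HM mice (median 0.26, none at such a p). Markers of hippocampal neurons summed to 50798 to 60977 in WT, 47862 to 63873 in HT and 51729 to 56508 in HM mice. In HM hippocampus 9 of 10 oligodendrocyte, 9 of 10 microglial and 8 of 10 endothelial markers had a negative difference, with 0, 1 and 1 at an unadjusted p under 0.05. Their sums were 138488 to 165392, 9869 to 10389 and 8701 to 10957 in HM, against 144818 to 158178, 10098 to 11566 and 9542 to 11373 in WT hippocampus. In HT hippocampus 9 of 10 astrocyte and 9 of 11 tested interneuron markers had a positive difference, none at such a p, and 5 of 15 cortical projection neuron markers had such a p, with 9 of 15 positive. Their sums were 136709.8 to 162511, 20056 to 23526 and 56586.5 to 61027 in HT, against 119466 to 145975, 19140.0 to 22326 and 50802 to 64841 in WT hippocampus. None of these markers passed the threshold, and all of these sums overlapped between mutant and WT mice. Their part in the Pcsk1 values was not tested.

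Elsewhere Pcsk1 followed neither genotype. WT cortex ranged from 1376 to 2037, HT cortex from 1440.1 to 1793 and HM cortex from 1120.4 to 1874. The lowest of these, 1120.4, was the HM library with spiny neuron markers, without which the HM mean rose from 96.4% to 103.7% of WT. In the striatum the WT range of 458 to 708 held 4 of 5 HT samples and 4 of 5 HM samples, and the means were 104.4% (HT) and 108.5% (HM) of WT. Its top, 708, was WT replicate 5, without which WT striatum spanned 458 to 590 and held 1 of 5 HT and 2 of 5 HM samples, at means of 112.0% and 116.4% of WT.

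Pcsk2 in HM cortex also moved with that library. HM cortex measured 14736, 8627, 12261, 12993 and 12657, of which 8627 was its value. The other 4 samples averaged 13162 ± 1091, or 99.2% of the WT mean of 13273 ± 1166, where all 5 gave 92.3%. In hippocampus the groups overlapped, with mean levels of 99.2% (HT) and 98.6% (HM) of WT. In striatum 3 of 5 HT samples lay below every WT sample, down to 8808, and HM samples ranged from 10132 to 12061 against 10393 to 12204 in WT. Without WT striatum replicate 5 the HT mean went from 92.1% to 90.7% of WT and the HM mean from 101.9% to 100.4%.

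For Cpe, mutant group means lay between 96.9% and 101.8% of WT over the 3 regions, and all mutant groups overlapped WT. Scg5 behaved alike, with group means between 95.4% and 100.8% of WT. Without HM cortex replicate 2, the HM cortex mean was 99.3% of WT for Cpe and 104.6% for Scg5. Without WT striatum replicate 5, the HM striatum mean of Cpe was 102.9% of WT, and 100.9% when HM replicate 5 was left out too.

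Pcsk1n in HM striatum had a difference carried by 1 sample. It measured 7592, 6129, 6153, 7108 and 3385 in HM and 7281, 8549, 6428, 7236 and 8254 in WT striatum. Sample HM 5, at 3385, lay far below the others, and the groups overlapped. The log2 difference was -0.36 ± 0.15 (adjusted p = 0.620, limma) with all 5 samples and -0.16 without HM replicate 5. The mean was 80.4% of WT with this sample and 89.4% without it. HT striatum, at 6462 to 7088, averaged 89.4% of WT.

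Among the granins, Scg3 in HT cortex was separated from WT without passing the test. It measured 6902, 7175, 6803, 7025 and 7232 in HT and 7419.9, 8094, 7650.3, 7252 and 7821 in WT cortex. All 5 HT samples lay below the lowest WT sample, by as few counts as separate 7232 from 7252. In this comparison 1 of the 9 genes tested and 0.333% of all genes were separated downward. The HT mean of 7027 ± 180.2 was 91.9% of WT (7647 ± 331). HM cortex, at 6210.3 to 8190.0, overlapped WT and averaged 93.8% of it, or 96.9% without replicate 2.

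Scg2 and Chgb in HM cortex also turned on replicate 2. Scg2 measured 4189.7, 6799, 3791, 4114 and 3679 in HM cortex, and 6799 was its value, above all other cortical samples and below those of WT striatum. Its group mean was 122.3% of WT with that library and 106.8% without it. Chgb measured 11204, 7967, 11109.7, 12766 and 10745, with the lowest value in the same library, and its mean was 103.2% of WT with it and 109.9% without it.

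The other granin values stayed within the range of WT mice or overlapped it. Chga was 109.1% of WT in HT striatum and 109.2% in HM striatum, with HM values of 2053 to 2218 inside the WT range of 1709 to 2447. That range is set by WT replicate 5: the other 4 WT samples reached 2011, and against them HT striatum was 116.1% and HM striatum 116.2%. Chgb was 90.8% of WT in HM hippocampus, at 12681 to 14285 against 12194 to 16622, and 107.5% in HM striatum, at 6251 to 7606 against 6233 to 6866 (109.3% without WT replicate 5). Scg2 in striatum reached 9776 in WT replicate 5, 9336 in HT replicate 4 and 10329 in HM replicate 5, and all genotypes overlapped. The means were 91.1% (HT) and 102.4% (HM) of WT, and 96.4% and 108.2% without WT replicate 5. The HM value turned on HM replicate 5: without that sample alone it was 95.8% of WT, and without both it was 101.3%.

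To test whether the HM effect differed between regions, the effects were compared in the fit of all 9 groups. None of the 9 genes passed the threshold. Between striatum and cortex 0 of 9 were called (0.0539% of all genes) and 0 of 9 had an unadjusted p under 0.05 (5.42%). Between striatum and hippocampus 0 of 9 were called (0.0718%) and 1 of 9 had such a p (5.37%), which was Chgb, with a difference of effects of 0.23 (adjusted p = 0.930). Between hippocampus and cortex 0 of 9 were called (0% of all genes) and 1 of 9 had such a p (4.45%), which was Pcsk1 (0.44, adjusted p = 0.999, or 0.32 without HM cortex replicate 2). For Pam, described only, the HM effect was -0.22 in cortex, 0.06 in hippocampus and 0.13 in striatum.

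The wider pathway was read from 6 lists of genes. They covered the remaining convertases and proteases (10 of 11 listed genes in the table), peptide end modification with the supply of copper and ascorbate to Pam (12 of 12), peptidases that cut released peptides (10 of 10), dense core granule cargo and release (17 of 17), precursors of amidated peptides (14 of 29) and precursors of peptides without an amide (11 of 13). No gene of these lists passed the threshold in any of the 6 mutant comparisons, in either direction. The paper, which used DESeq2, names Trh among its most prominent genes, as upregulated in HM hippocampus. The limma test did not call Trh there, so a gene not called here is not shown to be unchanged. The genes named from these lists are the pair with the smallest p of each list in HM cortex and in HM striatum. Their differences are therefore the larger ones of their lists.

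In HM cortex, the ascorbate transporter Slc23a2 and the copper transporter Atp7b had the smallest p values of the list around Pam. Slc23a2 averaged 5475 ± 556 in HM against 6168 ± 300.4 in WT mice (log2 difference -0.18 ± 0.065, adjusted p = 0.877, limma). Replicate 2 had 4716, below the other 4 HM samples (5338 to 6208, mean 5665). Atp7b averaged 71.1 ± 12.3 against 91.4 ± 12.9 (-0.36 ± 0.14, adjusted p = 0.877). Of that list 9 of 12 genes had a negative sign in HM cortex, with a median log2 difference of -0.08, and 5 of 12 a positive sign in HM striatum, with a median of -0.02. The related copper transporter Atp7a was at 267 ± 25.1 in HM and 228 ± 22.2 in WT striatum (0.23 ± 0.095, adjusted p = 0.619). Uhmk1, a kinase that binds Pam, was at 6899 ± 258 against 7266 ± 66.9 (-0.08 ± 0.039, adjusted p = 0.714).

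Of the remaining convertases and proteases, Pcsk5 was at 263 ± 23.8 in HM and 221 ± 27.8 in WT cortex (log2 difference 0.25, adjusted p = 0.877), and carboxypeptidase D (Cpd) at 2540.1 ± 72.7 and 2662 ± 76.2 (-0.07, adjusted p = 0.882). In striatum Pcsk4 was at 74.0 ± 14.1 in HM and 89.1 ± 6.64 in WT mice (-0.28, adjusted p = 0.746), and carboxypeptidase M (Cpm) at 612 ± 157 and 499 ± 75.7 (0.27, adjusted p = 0.796). Of the peptidases, neprilysin (Mme) was at 306 ± 184 in HM and 191 ± 37.6 in WT cortex (0.54, adjusted p = 0.877), with 629 in replicate 2 and 178 to 265 in the other 4 HM samples. Lnpep was at 4420 ± 249 and 4717 ± 274 there (-0.09, adjusted p = 0.882). In striatum prolyl endopeptidase (Prep) was at 734.5 ± 67.1 in HM and 798.5 in WT mice (747 to 840.2, log2 difference -0.12, adjusted p = 0.738), and Dpp4 at 13.7 ± 5.51 and 21.1 ± 6.77 (-0.59, adjusted p = 0.823).

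Of 17 genes for granule cargo, biogenesis and release, 11 had a positive and 6 a negative difference in HM striatum, with a median log2 difference of 0.06, and 4 of 17 had an unadjusted p under 0.05 (7.43% of all genes). The pair with the smallest p in that comparison both had a negative sign. Syt4, a synaptotagmin of dense core granules, averaged 5315 ± 377 in HM and 6068 ± 342 in WT striatum (log2 difference -0.19, adjusted p = 0.464). Ptprn2, a granule membrane protein, averaged 4655 ± 173 against 5053 ± 290.0 (-0.12, adjusted p = 0.630).

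Among the substrates of these enzymes, Tac1, the precursor of substance P, which is amidated, averaged 6377 ± 484 in HM and 5409 ± 284 in WT striatum. All 5 HM samples (5932 to 7008) lay above all 5 WT samples (5189 to 5891), as did those of 1.1% of all genes, with a log2 difference of 0.24 ± 0.080 (adjusted p = 0.460, limma). Pdyn, the dynorphin precursor, averaged 3189 ± 362 against 2565 ± 234 (0.31 ± 0.12, adjusted p = 0.515), and the groups overlapped by as little as 2791 against 2802. Npff, another precursor of amidated peptides, was at 23.6 ± 4.78 against 16.3 ± 3.89 (0.51, adjusted p = 0.658), and Nts, the neurotensin precursor, at 154 ± 42.1 against 103 ± 53.1 (0.66, adjusted p = 0.591). Of the precursors of amidated peptides 10 of 12 tested had a positive sign in HM striatum, with a median log2 difference of 0.10, and of the precursors without an amide 8 of 11, with a median of 0.21, beside 0.00 over all genes.

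In HM cortex Tac1, Pdyn, Trh and Nts were each highest in replicate 2. Tac1 was at 2909 there and at 222 to 291 in the other 4 HM samples, and Pdyn at 2329 against 504 to 597, where WT cortex had 203 to 265 and 472 to 575. Trh, the thyrotropin-releasing hormone precursor, averaged 27.1 ± 14.7 in HM and 11.3 ± 5.82 in WT cortex (log2 difference 1.23, adjusted p = 0.877), with 51.2 in replicate 2 and 15.5 to 30.7 in the other 4, beside 3.73 to 15.8 in WT cortex. Nts was at 350.4 against 6.39 to 10.9, where WT striatum averaged 103. The other 4 HM samples of Nts also lay above all 5 WT cortical samples (1.05 to 4.37), at levels of a few normalized counts (log2 difference 2.47 over all 5, adjusted p = 0.877). Baiap3, a regulator of granule exocytosis, was at 1544 against 72.6 to 133, where WT striatum averaged 612, and Syt10, another synaptotagmin, was at 125 against 32.4 to 53.5. The WT cortical samples had 29.2 to 78.9 for Baiap3 and 26.6 to 33.1 for Syt10, which overlapped the other 4 HM samples.

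Genes whose sample-to-sample variation was most like that of Pam were sought among 16707 genes, by Pearson's r over the 45 samples after removal of each group's mean. They were Serinc3, a membrane protein (r = 0.67), Prkacb, a catalytic subunit of protein kinase A (0.62), Cacng3, an auxiliary subunit of AMPA receptors (0.60), Wsb2, a SOCS box protein (0.59), and Zfr, a zinc finger RNA-binding protein (0.58). Without HM cortex replicate 2 their r was 0.60, 0.55, 0.49, 0.47 and 0.51. Of the pathway, Pcsk2 (0.40) and Scg3 (0.38) followed Pam most closely, and Pcsk1n (-0.36) and Chga (-0.34) ran against it. Without that library Pcsk2 was at 0.22, Scg3 at 0.28, Pcsk1n at -0.37 and Chga at -0.39. All values of a sample share its library and its scaling, and these correlations are given as a description.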

How the data were processed

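RNA was sequenced after TruSeq Stranded mRNA library preparation from 45 samples (9 groups of 5). The authors estimated transcript abundance with Salmon 1.1.0 with GC bias correction, imported it with tximport and normalized it with DESeq2. The submitters' processing notes name DESeq2 1.26.0, R 3.6.2 and GRCm38. The deposited signal values are these normalized counts. They carry decimals and no step in them gave back whole reads, so count models were not used. The columns summed to between 26118607 and 29568983, a sum that normalization sets and that does not measure depth, which is unknown. Of 18135 genes, 18120 had a symbol in the gene tables.

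The values were put on a log2(value + 1) scale. A gene entered the fit where its mean was 10 or more, with limma 3.58.1 in R 4.3.3 (lmFit, eBayes with an intensity trend), per region for mutant against WT and over the 9 groups for regions. Every adjusted p value is a two-sided limma p after Benjamini-Hochberg adjustment over all genes tested, with a threshold of 0.05, and fold changes are on the log2(value + 1) scale. In simulated data, 83.3% of genes changed by 1 on the log2 scale were recovered for the HM cortex comparison, 52.2% of those changed by 0.5 and 7.46% of those changed by 0.25. Alternatives changed the trend, scaling, filter, pseudocount, block and samples fitted.

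The genes and lists were chosen with earlier results of these data known. Named from each further list are, per HM comparison in cortex and striatum, the 2 genes with the smallest p. Positions are from GENCODE M21 and promoters from RefSeq. Columns headed KI were taken as the samples labelled knock-out. Marker lists and striatal group means were also read without the libraries that stood apart, alternatives chosen after seeing the data.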

Additional observations from a re-analysis of the deposited data

Results flagged for a closer look

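In 7 of the 90 groups of 5 samples, 1 sample lay farther from the others than Dixon's limit, where chance flags about 1 group in 20, or 4.5 groups. Cpe was 42724 in WT striatum replicate 5 and 40174 to 40896 in the others. Chga was 2988 in WT hippocampus replicate 1 and 2289 to 2436 in the others. Scg2 was 6799 in HM cortex replicate 2 (others 3679 to 4189.7), 9776 in WT striatum replicate 5 (others 7186 to 7900.1) and 10329 in HM striatum replicate 5 (others 7294 to 8165). WT striatum replicate 5 also had the highest cortical projection neuron markers of its group, and leaving it out moved the HM striatum mean from 101.8% to 102.9% of WT for Cpe and from 102.4% to 108.2% for Scg2. With HM striatum replicate 5 left out as well, these were 100.9% and 101.3%. The part of these markers in the values was not tested. Scg3 was 5307 in WT hippocampus replicate 4 (others 6567 to 6988) and 7274 in HM striatum replicate 3 (others 6054 to 6389).

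For Pam, all samples of a mutant group lay on one side of the WT mean in one region and on the other side in another region. The log2 difference from WT in HT mice was -0.09 in cortex and 0.09 in hippocampus, 0.18 apart. In HM mice it was -0.22 in cortex, 0.06 in hippocampus and 0.13 in striatum, so that hippocampus was 0.28 and striatum 0.35 from cortex. These differences were not tested, and the last is the one Pam was picked for. The others rest on the same WT cortex samples, and that between HM cortex and hippocampus on the same HM cortex samples too.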

How the results depend on the processing

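The 15 counts of called genes stayed within 1.5 times their main value and the 2 Pam differences kept their direction under 7 alternatives (no intensity trend, quantile normalization, no filter, a minimum mean of 100, 0.1 as the pseudocount, a replicate block, and only the groups compared) and with each sample left out. The 9 counts between genotypes, or between regions of the HM effect, were 0 throughout. Of the regional counts, the 9 of 10 in HT hippocampus against cortex was 7 or 8 with any 1 sample left out and 8 without the trend and under quantile normalization, and in WT mice that count rose from 7 to 9 when only the groups compared were fitted. The other 4 regional counts moved by at most 1. Leaving out 1 sample, Pam ranged from -0.25 to -0.18 in HM cortex and from 0.097 to 0.16 in HM striatum. Directions turned for Scg3, which passed no test there: under quantile normalization hippocampus minus cortex in HT mice was 0.0172 and striatum minus hippocampus in WT mice -0.0709. With samples left out, the latter ranged from -0.0589 to 0.0490, striatum minus hippocampus of Scg3 in HT mice from -0.0451 to 0.0203, and striatum minus cortex of Pcsk1n in HT mice from -0.0137 to 0.0572. The cause was not tested. Calls that changed are given beside their genes, apart from Scg2 in HT hippocampus against cortex without the intensity trend (adjusted p = 0.0575), Scg2 in WT mice under quantile normalization (adjusted p = 0.0302), and Pcsk1n and Scg2 in WT hippocampus against cortex when only the groups compared were fitted (adjusted p = 0.0266 and 0.00820).

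The replicate numbers are not stated to mark the same mouse. Samples of one genotype and number in 2 regions had a median correlation of deviations of 0.067, and 16 of 45 pairs exceeded 0.1, where samples with different numbers had a median of -0.018 and 5 of 180 pairs exceeded 0.1. Samples with the same number were thus more alike by these values, but no source states a shared mouse. The main fits treated all samples as independent, and whether some numbers mark one mouse is not known. In the fit across regions, the replicate block joined samples of one genotype and number (estimated correlation 0.12). It changed no call, with 9 of 10 in HT hippocampus against cortex. Within a region, the block joined the same number across genotypes, which are different mice. That fit called 0 of the genes in each mutant comparison and is no check of shared mice. Depth is unknown, and of genes changed by 0.25 on the log2 scale in simulated data, 7.46% were recovered in cortex, 19.4% in hippocampus and 25.4% in striatum.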
